A study of Mus musculus with 88 samples.

Results

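Plagl1, Peg3 and Zim1 are 3 imprinted mouse genes for zinc finger proteins, and they were followed through 26 RNA-seq libraries of embryonic stem cell (ESC) lines and fibroblasts. They were chosen by gene name in the deposited table, in which each name stands at 1 row, and they are 3 of 21848 named genes. The series holds 88 samples, of which 62 are bisulfite samples that are not analysed here. Its RNA-seq libraries compare ESC lines derived in different media, of both sexes and from a pair of F1 crosses, with fibroblasts beside them.

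The B6 cross (F1 of 129X1/SvJ and C57BL6) gave 16 libraries, 2 lines for each of 4 media and each sex, all at passage 3. The medium 2i holds an inhibitor of MEK, the kinase upstream of ERK, and an inhibitor of GSK3. In t2i the MEK inhibitor is titrated to a lower dose, in a2i it is replaced by an inhibitor of Src, and serum lines grew without these inhibitors. The lines were XX 3 and 4 and XY 2 and 6 in 2i, XX 1 and 3 and XY 2 and 6 in t2i, XX 4 and 18 and XY 1 and 3 in a2i, and XX 17 and 46 and XY 10 and 16 in serum. The MSM cross (F1 of 129X1/SvJ and MSM/Ms) gave 10 libraries. These were 2i ESC lines XX 15, XX 2, XY 20 and XY 23 and serum lines (labelled S) XX 8 and XY 12, all at passage 3, and 2i-S, which is XX line 15 moved from 2i to serum and passaged 14 times more. Its fibroblasts were mouse embryonic fibroblasts (MEFs) of lines 2 and 4 at passage 1, whose titles and descriptions give opposite sexes, and 1 culture of fibroblasts from ESC line 15 (2i MEF, labelled passage 5 and then 1 more). No label names a transgene, a deletion or which strain was the mother. Each library was taken as a separate line, except that MSM line 15 supplied 3 of them. In the B6 cross some line numbers recur across media, such as XY 2 and 6 in 2i and t2i. Lines of different media were taken as different lines, so p-values are read as measuring the spread between lines.

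In an imprinted gene 1 parental copy is silenced, often through DNA methylation laid down in the egg or the sperm at a nearby control region. Plagl1 (also known as Zac1) encodes a transcription factor that can arrest the cell cycle and that acts on a network of other imprinted genes that regulate fetal growth. Peg3 encodes a large DNA-binding zinc finger protein, and in mice its loss reduces growth and disturbs maternal care. Both are expressed from the paternal copy, and each start region is methylated on the maternal copy. Zim1, a zinc finger gene next to Peg3, is expressed in the mouse mainly from the maternal copy. The inhibitors of 2i are known to lower DNA methylation in ESCs, more so in XX lines, and t2i and a2i were made to lessen that loss.

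In the table (mm10) Plagl1 (ENSMUSG00000019817.18) lies at chr10:13060503-13131694. Peg3 (ENSMUSG00000002265.16) lies at chr7:6703891-6730431, and Zim1 (ENSMUSG00000002266.16) lies beside it at chr7:6671268-6696450, with 7441 bases between the pair. The RefSeq start windows of the 3 genes (GRCm38.p6, from 250 bases before to 50 after the start site) are printed because the start regions of Plagl1 and Peg3 are where their imprint is carried, and because the 3 windows differ in sequence make-up. Capitals mark matches on either strand to TGCCGC, the hexamer that the imprint-protecting factor ZFP57 binds when methylated, to GGGGCCCC, a palindrome that PLAGL1 binds, and to TGACGTCA, the palindrome bound by CREB-type factors, which was picked after the windows were read.
Plagl1: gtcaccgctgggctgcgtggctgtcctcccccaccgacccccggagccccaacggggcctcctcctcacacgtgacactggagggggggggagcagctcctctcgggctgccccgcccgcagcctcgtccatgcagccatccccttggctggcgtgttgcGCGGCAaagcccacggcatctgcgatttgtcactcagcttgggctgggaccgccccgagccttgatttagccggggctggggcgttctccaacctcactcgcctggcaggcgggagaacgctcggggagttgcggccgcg
Peg3: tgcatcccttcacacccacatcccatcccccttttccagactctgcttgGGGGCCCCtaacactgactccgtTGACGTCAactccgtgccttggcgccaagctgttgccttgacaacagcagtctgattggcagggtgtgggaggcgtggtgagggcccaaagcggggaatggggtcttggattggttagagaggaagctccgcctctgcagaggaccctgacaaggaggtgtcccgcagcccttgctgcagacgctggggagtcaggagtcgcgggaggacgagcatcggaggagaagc
Zim1: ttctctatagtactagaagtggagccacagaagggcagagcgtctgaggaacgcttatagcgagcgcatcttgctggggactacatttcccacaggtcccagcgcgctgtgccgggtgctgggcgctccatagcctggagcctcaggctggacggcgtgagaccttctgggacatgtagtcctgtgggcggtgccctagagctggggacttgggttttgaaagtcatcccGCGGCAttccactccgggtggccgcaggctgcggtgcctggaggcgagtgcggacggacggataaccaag
The Plagl1 window lies at chr10:13090582-13090881 on the plus strand, Peg3's at chr7:6730370-6730669 and Zim1's at chr7:6696383-6696682, both on the minus strand. They hold 26 CpG sites (Plagl1), 13 (Peg3) and 20 (Zim1), against a median of 7 over 32817 such mouse windows. At least as many are held by 16.9%, 37.9% and 26.5% of all windows, so none of these counts is rare. Plagl1 and Zim1 each hold 1 match to TGCCGC, which 11.6% of all windows hold. Peg3 holds 1 match to GGGGCCCC, found in 1.07% of windows, and 1 to TGACGTCA, found in 1.79%. The window of Usp29, a deubiquitinase gene that starts 164 bases away on the other strand, shares both of Peg3's matches because the windows overlap. A match describes the letters and shows no binding.

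The deposited values are RPKM (reads scaled to transcript length and library size), so levels of different genes may be set side by side. The Plagl1 row starts 30329 bases before the RefSeq start site and also spans Hymai, a non-coding RNA that starts 13 bases from Plagl1 on the same strand and has no row of its own, so RNA of the pair cannot be told apart. It also spans Gm40602 (chr10:13060534-13084708), likewise without a row. The library kit keeps strand, but the sources used here do not give whether the counting did, and reads of Peg3os, which lies antisense within Peg3 without a row of its own, may count towards Peg3.

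The B6 serum libraries stand apart from the rest. All 16 fibroblast markers read at least 1 RPKM in each of them, and their sum was 1877 to 2358 RPKM, against 218.7 to 431.5 in the other 12 B6 libraries and 18330 to 25530 in the fibroblasts. By the median of these markers, serum libraries held 7.88% to 11.6% of the MEF level, other B6 libraries at most 0.0216% and MSM ESC libraries at most 1.41%. Eif2s3y, a Y-linked gene, read 1.37 and 1.64 RPKM in the serum XX libraries and is listed at 0 in the other XX libraries of the B6 cross. The summed primitive endoderm markers were also higher in serum (105.5 to 298.7 RPKM, against 11.4 to 25.4 in the other B6 libraries). Among the serum libraries they were highest in XY line 10. The fibroblasts themselves read 635.3 to 649.9 RPKM in these markers. Summed trophectoderm markers were 59.01 to 163.2 RPKM in serum, against 15.54 to 34.63 in the other B6 libraries. Of these 6 markers 4 were tested in 2i against serum. Krt8 and Krt18 were higher in serum, and Eomes and Gata3 were not called. The part of these markers in the results was not tested. The 10 ESC markers were above 1 RPKM in every ESC library. Y-linked loci all read 0 in the MSM libraries, XY lines included, so sex was not checked there.

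Plagl1 was highest in 2i and lowest in serum, and higher in XX than in XY lines in every medium of the B6 cross. In 2i it read 84.9 and 74.6 RPKM in the XX lines and 24.7 and 22.7 RPKM in the XY lines. In serum it read 6.73 and 12.5 RPKM in the XX lines and 3.38 and 1.91 RPKM in the XY lines. Every 2i line stood above every serum line. The difference, 2i minus serum, was 2.88 on the log2(RPKM + 1) scale (SE 0.20, 95% interval 2.45 to 3.32, n = 4 and 4 lines, limma adjusted p = 1.5e-07), ranking 184 by size of 13150 genes tested. Of those genes 47.6% were called in either direction at an adjusted p under 0.05, 16.8% higher and 30.7% lower in 2i. The ratio of mean RPKM was 8.30 in XX lines and 8.94 in XY lines, and the sexes' effects differed by 0.19 (SE 0.40, interval -0.68 to 1.07, adjusted p = 0.82, beside 8.17% of genes called for such a difference).

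The fibroblast RNA in the serum libraries bears on this comparison because MEFs express Plagl1. Their share would account for 2.24 and 2.41 RPKM in the serum XY lines 10 and 16, which is 66.2% and 126% of what was read, and for 24.4% and 16.4% in the XX lines 17 and 46. The MEF lines themselves differ, so that for line 16 the expected part is 3.87 RPKM from MEF line 2 and 0.947 RPKM from MEF line 4. With the expected part subtracted, the difference was 3.67 (SE 0.25, limma adjusted p = 5.1e-07), and the sexes' effects then differed by -0.80 (adjusted p = 0.37). The subtraction takes Plagl1 almost only from the serum libraries and leaves line 16 at 0. It could thus only widen the difference between 2i and serum and does not test its direction. In bulk RNA, fewer cells expressing a gene and less RNA per cell cannot be told apart.

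**Figure D1:**
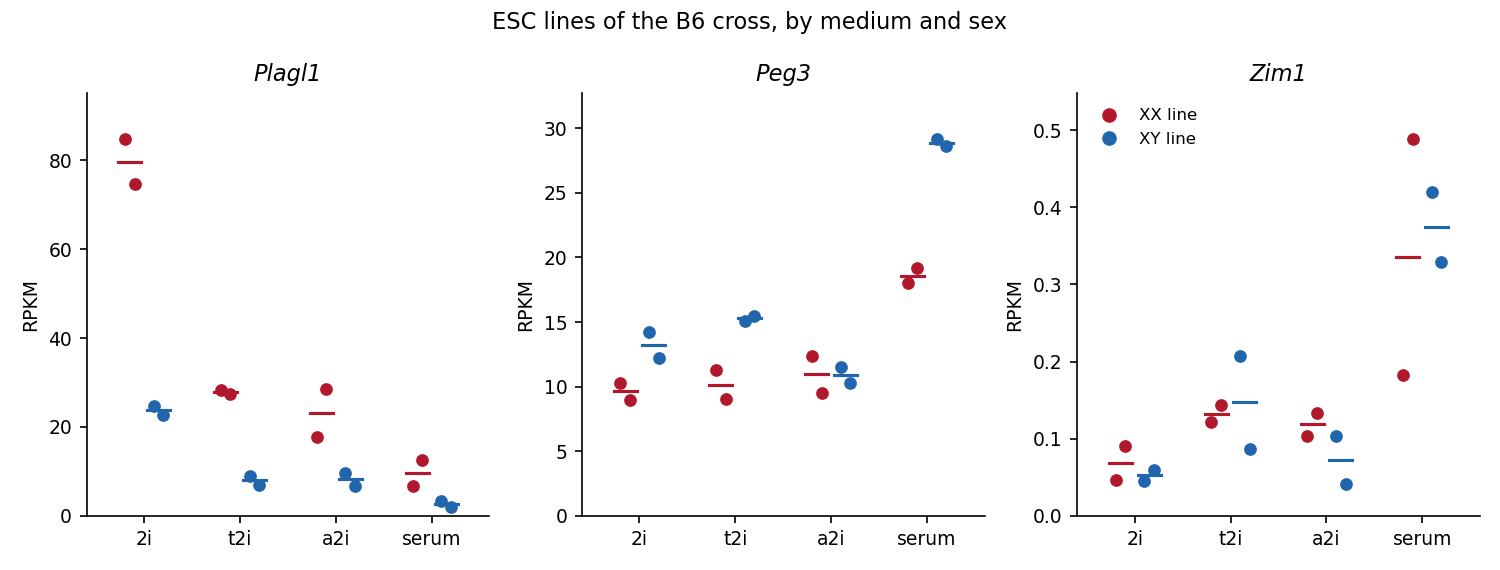
RPKM (y axis, from 0, a scale of its own for each gene) of Plagl1, Peg3 and Zim1 in each of the 16 libraries of the B6 cross, by medium (x axis) and sex, with bars at the mean of 2 lines. Plagl1 falls from 2i to serum with XX points above XY points in every medium, Peg3 is highest in the serum XY lines, and Zim1 stays below 0.5 RPKM.

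Both altered inhibitor media held less Plagl1 RNA than 2i. In t2i Plagl1 read 28.2 and 27.5 RPKM in the XX lines and 9.00 and 7 RPKM in the XY lines. In a2i it read 17.7 and 28.5 RPKM in the XX lines and 9.71 and 6.78 RPKM in the XY lines. Within each sex, all t2i and a2i lines stood below the 2i lines and above the serum lines. Against 2i, t2i lowered Plagl1 by a log2 difference of -1.47 (SE 0.20, interval -1.91 to -1.03, n = 4 and 4, limma adjusted p = 0.0012), ranking 20 by size among all genes tested, of which 8.08% were called, 4.19% higher and 3.89% lower. For a2i the difference was -1.61 (SE 0.20, interval -2.05 to -1.17, limma adjusted p = 3.2e-04), ranking 44, with 13.8% of genes called, 7.94% higher and 5.85% lower. Both comparisons use the same 2i libraries.

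Mean Plagl1 was 2.87 times higher in 2i than in t2i among XX lines and 2.96 times among XY lines, and 3.45 and 2.87 times higher than in a2i. The sexes did not differ detectably in the t2i effect (-0.02, SE 0.40, interval -0.90 to 0.86, adjusted p = 1, 1.26% of genes called) or in the a2i effect (-0.35, SE 0.40, interval -1.22 to 0.53, adjusted p = 0.67, 4.93% called). Between a2i and t2i the difference was -0.13 (SE 0.20, interval -0.57 to 0.30, adjusted p = 0.84, 1.0% called). Against serum, Plagl1 was higher by 1.41 in t2i (SE 0.20, adjusted p = 1.1e-04, 43.8% called) and by 1.28 in a2i (SE 0.20, adjusted p = 3.0e-04, 37.4% called), and by 2.2 and 2.07 with the fibroblast part subtracted. The subtraction could only widen these differences too.

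XX lines held about 3 times as much Plagl1 RNA as XY lines. Over the 4 media the log2 difference was 1.57 (SE 0.14, interval 1.26 to 1.88, n = 8 and 8 lines, limma adjusted p = 2.7e-06), ranking 129, and 41.5% of genes were called, 21.4% higher and 20.0% lower in XX. The ratio of means was 3.36 in 2i, 3.48 in t2i, 2.80 in a2i and 3.62 in serum, and the XX and XY values did not overlap in any medium. The difference was 1.59 without the serum libraries and 1.82 with fibroblast RNA subtracted, which left serum XY line 16 at 0. Plagl1 lies on chromosome 10, not on the X chromosome.

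Peg3 followed another order, with higher levels in serum than in any inhibitor medium and little difference among 2i, t2i and a2i. In serum it read 29.2 and 28.6 RPKM in the XY lines and 18 and 19.2 RPKM in the XX lines. In 2i it read 14.2 and 12.2 RPKM in the XY lines and 10.3 and 8.95 RPKM in the XX lines. Every serum line stood above every 2i line, and the log2 difference, 2i minus serum, was -0.98 (SE 0.11, interval -1.21 to -0.75, n = 4 and 4, limma adjusted p = 9.3e-06). By size it ranked 1784 of 13150 genes tested, of which 47.6% were called, 30.7% lower in 2i. The fibroblast share accounts for 5.85% to 8.15% of the Peg3 RPKM in serum, and the difference without it was -0.88 (SE 0.11, limma adjusted p = 4.6e-05).

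In t2i Peg3 read 11.3 and 9.01 RPKM in the XX lines and 15.1 and 15.5 RPKM in the XY lines, and in a2i 12.4 and 9.48 RPKM and 11.5 and 10.3 RPKM. Among XX lines the t2i and a2i values overlap those of 2i, whereas among XY lines both t2i lines stood above and both a2i lines below the 2i lines. The differences from 2i were 0.13 for t2i (SE 0.11, interval -0.10 to 0.37, adjusted p = 0.52) and -0.05 for a2i (SE 0.11, interval -0.28 to 0.19, adjusted p = 0.84), and a2i stood at -0.18 from t2i (SE 0.11, interval -0.41 to 0.06, adjusted p = 0.51). Neither interval against 2i reaches beyond 0.37 log2 units from 0, and Plagl1 and Peg3 were not tested against each other. Against serum, Peg3 stood at -0.85 in t2i (SE 0.11, adjusted p = 4.2e-05, 43.8% of genes called) and at -1.03 in a2i (SE 0.11, adjusted p = 9.1e-06, 37.4% called).

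The sexes differed in Peg3 the other way round from Plagl1, with XY lines higher. The log2 difference, XX minus XY, was -0.40 (SE 0.08, interval -0.56 to -0.23, n = 8 and 8, limma adjusted p = 0.0011), and -0.33 without the serum libraries (adjusted p = 0.019). Over all 4 media it ranked 3038 by size of 13150 genes tested, of which 41.5% were called, 20.0% lower in XX. Mean RPKM was 1.37 times higher in XY lines in 2i, 1.51 times in t2i and 1.55 times in serum, without overlap, whereas in a2i the means were 10.9 RPKM in both sexes and the lines overlapped. No difference between the sexes in a medium effect passed the test (0.19 for 2i against serum, -0.14 for t2i and 0.41 for a2i against 2i, SE 0.22 each, adjusted p = 0.64, 0.83 and 0.3).

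The order of Plagl1 and Peg3 within a library turned over between media. Plagl1 stood at 8.22 and 8.34 times Peg3 in the 2i XX lines, while in the serum XY lines Peg3 stood at 8.64 and 15.0 times Plagl1. Plagl1 was the higher of the pair in all 2i lines and in the XX lines of t2i and a2i. Peg3 was the higher in all serum lines and in the XY lines of t2i and a2i.

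**Figure D2:**
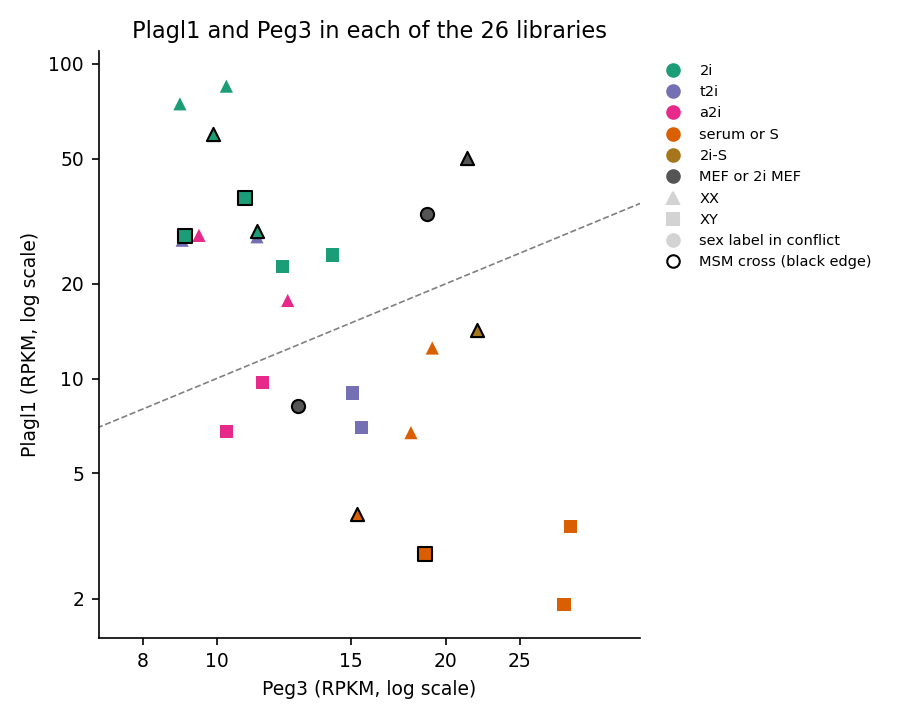
Plagl1 against Peg3 RPKM (both axes on a log scale) in each of the 26 libraries, with the line of equal levels dashed, colour for medium, shape for sex and a black edge for the MSM cross. The 2i lines lie above the dashed line and the serum and S lines below it, and serum XY lines of the B6 cross lie at the lower right.

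Zim1 was near the bottom of the range in every library. It read 0.0459, 0.0908, 0.0449 and 0.0598 RPKM in the 2i lines of the B6 cross and 0.182, 0.489, 0.420 and 0.329 RPKM in the serum lines. In t2i it ranged from 0.0871 to 0.207 RPKM and in a2i from 0.0414 to 0.133 RPKM. The serum lines stood above all 2i and a2i lines but overlapped the t2i lines. Zim1 never reached 1 RPKM and so failed the filter of every fit, and at levels this low few reads lie behind a value. In the fit without a filter on low values its log2 difference, 2i minus serum, was -0.35 (limma adjusted p = 0.0016), a scale on which such low values change little: it was -1.46 with a pseudocount of 0.1 RPKM and -0.10 after quantile normalization. The fibroblast share would give 14.0% to 30.0% of the Zim1 RPKM in serum, since MEFs held more Zim1 than any ESC line (0.835 and 0.550 RPKM).

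In the MSM cross, whose ESC libraries held at most 1.41% of the MEF marker level, Plagl1 again was far higher in 2i than in serum. The 2i lines read 29.4 and 60.0 RPKM (XX 15 and 2) and 28.3 and 37.5 RPKM (XY 20 and 23). The S lines read 3.71 RPKM (XX 8) and 2.76 RPKM (XY 12). No 2i line came near an S line. The log2 difference was 3.18 (SE 0.49, interval 2.05 to 4.30, n = 4 and 2 lines, limma adjusted p = 0.0056), ranking 30 of 13443 genes tested, with 17.0% called, 8.36% higher and 8.67% lower. With 2 S lines the call rests on both, since the adjusted p was 0.055 without XX 8 and 0.063 without XY 12. The effect did not differ detectably from that of the B6 cross (-0.29, B6 minus MSM, SE 0.36, interval -1.08 to 0.50, adjusted p = 0.65, 11.6% of genes called; 0.43 with fibroblast RNA subtracted, adjusted p = 0.62), and 2i lines of the crosses differed by -0.23 (MSM minus B6, SE 0.29, interval -0.89 to 0.43, adjusted p = 0.63, 17.3% called). In these comparisons cross cannot be told apart from the run or processing of each cross's libraries.

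The separation of XX from XY lines seen in the B6 cross was not seen in the MSM 2i lines, where XX line 15 stood within the range of the XY lines and XX line 2 above it. Whether the sex difference itself differs between the crosses was not tested.

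Peg3 read 11.3, 9.88, 9.08 and 10.9 RPKM in the MSM 2i lines (XX 15, XX 2, XY 20 and XY 23) and 15.3 and 18.8 RPKM in the S lines (XX 8 and XY 12). Both S lines stood above all 2i lines, but the difference of -0.68 (SE 0.20, interval -1.13 to -0.22) had an adjusted p of 0.052 in limma. The B6 effect minus the MSM effect was -0.30 (SE 0.19, interval -0.71 to 0.11, adjusted p = 0.33), and 2i lines of the crosses differed in Peg3 by -0.13 (SE 0.15, adjusted p = 0.61). Here too cross and processing cannot be told apart. Zim1 read 0.0994 to 0.198 RPKM in the 2i lines and 0.173 and 0.198 RPKM in the S lines, which overlap.

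When line 15 was moved from 2i to serum, Plagl1 went from 29.4 RPKM in its 2i library to 14.3 RPKM, Peg3 from 11.3 to 22 RPKM and Zim1 stood at 0.248 RPKM. The 2i-S library lay below all 2i lines and above both S lines for Plagl1, and above every other MSM library for Peg3. With 1 library, assumed to vary like the other groups, neither passed the test against the 4 2i lines. Plagl1 stood at -1.49 (SE 0.67, interval -3.03 to 0.06, limma adjusted p = 0.32) and Peg3 at 1.05 (SE 0.27, interval 0.42 to 1.68, limma adjusted p = 0.11), beside 1.22% of genes called. The 2i-S culture had more passages than the 2i lines, so medium and passage cannot be told apart here.

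**Figure D3:**
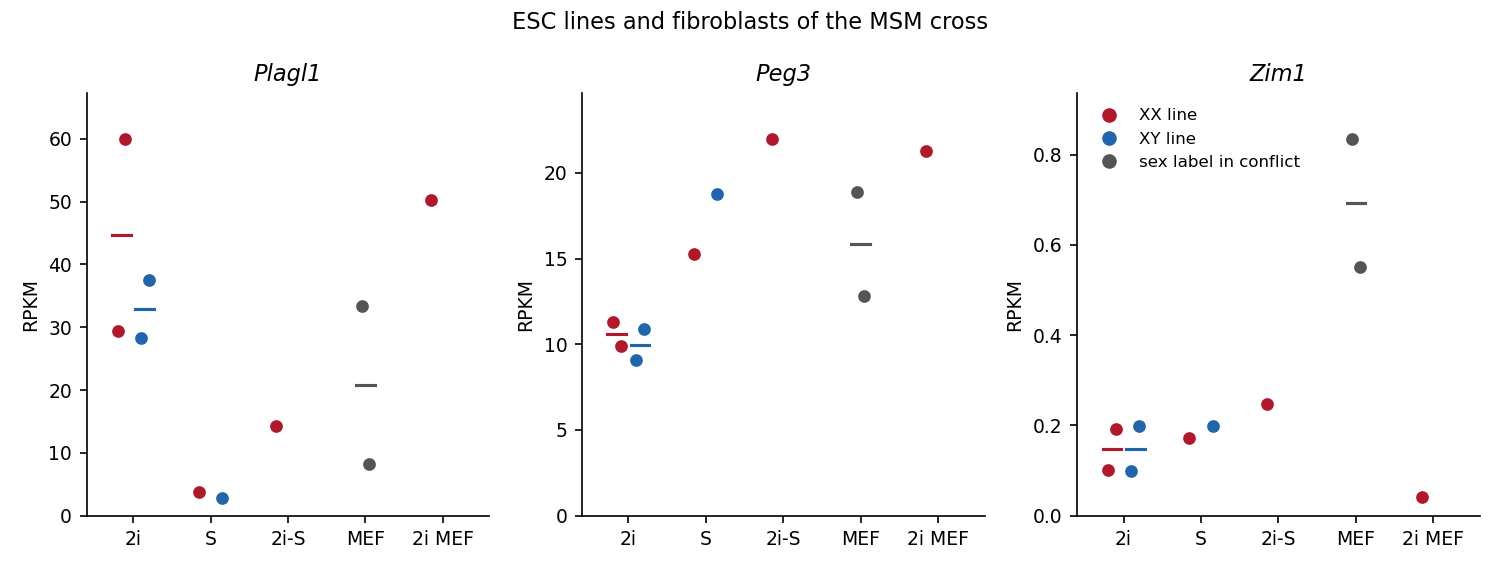
RPKM (y axis, from 0, a scale of its own for each gene) of Plagl1, Peg3 and Zim1 in each of the 10 libraries of the MSM cross, by culture (x axis) and sex, with bars at the mean where a group has 2 lines. The S lines are lowest for Plagl1, and the 2i MEF library is above the MEFs for Plagl1 and Peg3 and below them for Zim1.

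MEFs held Plagl1 and Peg3 RNA, with wide spread in Plagl1, and Zim1 stayed below 1 RPKM in them. MEF lines 2 and 4 read 33.4 and 8.18 RPKM for Plagl1 and 18.9 and 12.8 RPKM for Peg3. Against the 2i lines MEFs stood at -1.10 for Plagl1 (SE 0.49, interval -2.22 to 0.03, n = 2 and 4, limma adjusted p = 0.074) and at 0.56 for Peg3 (SE 0.20, interval 0.10 to 1.02, limma adjusted p = 0.033), where 71.1% of all genes were called. Without MEF line 2, Plagl1 was called at -2.05 (adjusted p = 0.0037) and Peg3 was not, nor was Peg3 without 2i line 2, 20 or 23 (0.30 to 0.83 over all left-out libraries). Zim1 was higher in both MEFs than in all ESC libraries, at 0.56 in the fit without a filter (limma adjusted p = 0.0022). The 3 fibroblast libraries read 29.4 to 125 RPKM in summed ESC markers, against at least 7644 RPKM in ESC libraries.

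Fibroblasts that had passed through 2i ESCs (2i MEF) read 50.3 RPKM for Plagl1, 21.3 RPKM for Peg3 and 0.0413 RPKM for Zim1. The library thus lay above both MEFs for Plagl1 and Peg3 and below both for Zim1. No test was passed with this single library. Plagl1 stood at 1.53 (SE 0.69, interval -0.06 to 3.12, limma adjusted p = 0.47), Peg3 at 0.42 (SE 0.28, interval -0.22 to 1.07, limma adjusted p = 0.69) and Zim1 at -0.70 in the fit without a filter (limma adjusted p = 0.088). Of all genes 0.454% were called, 0.126% higher and 0.327% lower. Origin and passage cannot be told apart in this comparison.

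**Figure D4:**
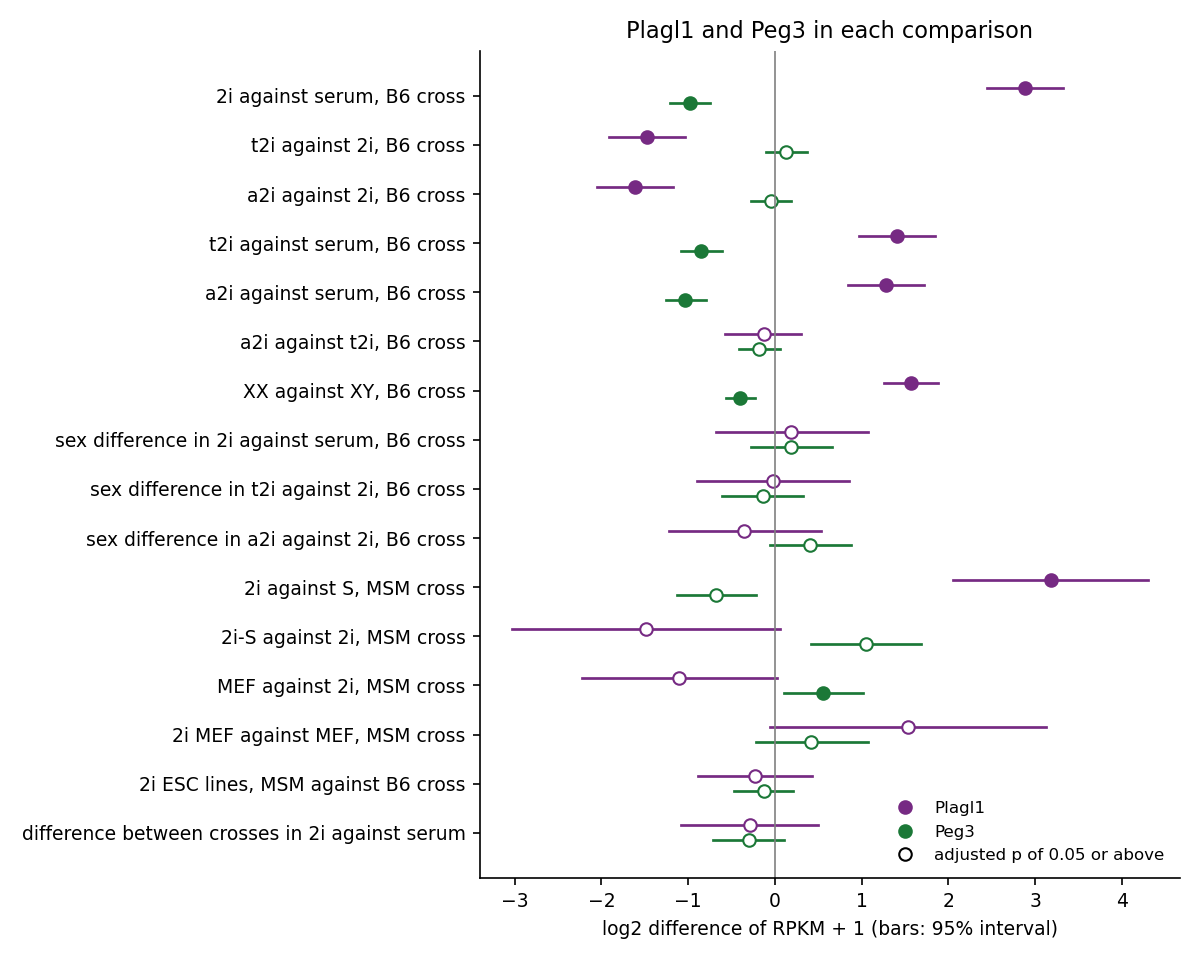
Log2 differences of RPKM + 1 (x axis) with 95% intervals for Plagl1 and Peg3 in the 16 comparisons (y axis), first group minus second, with filled points where the adjusted p is under 0.05. Plagl1 and Peg3 lie on opposite sides of 0 in 2i, t2i and a2i against serum and in XX against XY, and Plagl1 alone is called in t2i and a2i against 2i.

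Near Peg3, Usp29, the paternally expressed neighbour that shares its start region, read 0.463 to 2.35 RPKM in the B6 cross and was not called in 2i against serum (-0.18, SE 0.17, adjusted p = 0.4). Like Peg3 it was lower in XX lines (-0.45, SE 0.12, limma adjusted p = 0.0090). Near Plagl1, 5 of 6 listed neighbours were tested in 2i against serum, at a median of 0.30 against -0.09 for all genes. Of the 5, 3 rose, among them Pex3, a peroxisome assembly gene (0.76, SE 0.16, adjusted p = 0.0021), and none was lower. Of all genes 16.8% were higher and 30.7% lower. None of the 5 was called in t2i or a2i against 2i, beside 8.08% and 13.8% of all genes. Pex3 stood there at -0.35 (SE 0.16, adjusted p = 0.22) and -0.51 (SE 0.16, adjusted p = 0.06). Of Plagl1's relatives, Plag1 and Plagl2, neither was called in 2i against serum (-0.24, SE 0.17, and -0.01, SE 0.16, adjusted p = 0.25 and 0.97).

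Most tested genes of the imprinted network that Plagl1 is known to regulate were lower in each inhibitor medium than in serum. Of its 15 listed genes, Peg3 among them, 13 were tested in the B6 cross. Their median in 2i against serum was -1.25, against -0.09 for all genes. Of the 13, 12 were lower in 2i, Peg3 included, and none higher, beside 30.7% of all genes lower and 16.8% higher. Examples are Cdkn1c, a cell cycle inhibitor (-2.66, SE 0.15, adjusted p = 2.4e-08), Igf2, a fetal growth factor (-5.18, SE 0.38, adjusted p = 2.5e-07), and Grb10, an inhibitor of growth factor signalling (-1.09, SE 0.16, adjusted p = 9.4e-05). Fibroblasts express many of these genes, and with the fibroblast part of the serum libraries (7.88% to 11.6% of the MEF level) subtracted, 8 were lower, at a median of -0.70 against 0.06. Igf2 then stood at -1.49 and was not called (adjusted p = 0.2), while Cdkn1c stood at -2.45 (adjusted p = 3.1e-07). The subtraction did not level the fibroblast markers, of which 8 of 16 stayed lower in 2i and 2 were higher, at a median of -0.75. The part of the remaining fibroblast RNA in the network counts was not tested. Against the same serum libraries 12 of 13 were also lower in t2i (median -1.29, against -0.07 for all genes) and in a2i (-1.23, against -0.06). With fibroblast RNA subtracted 9 and 5 were lower, at medians of -0.75 and -0.65 against 0.07 and 0.08 for all genes. Of all genes 43.8% and 37.4% were called in either direction in t2i and a2i against serum, as deposited. Shares by direction are not given for these comparisons. No share of all genes called after subtraction is given, so the subtracted counts of the network stand without one. In the MSM cross 8 of 13 were lower in 2i than in S and none higher, at a median of -0.89 against -0.02, beside 8.67% of all genes lower. In that comparison 8 of the 16 fibroblast markers were lower too and 1 was higher, at a median of -1.46. Their part in the result was not tested. In t2i 3 of 13 rose over 2i (Cdkn1c, Grb10 and Peg10) and in a2i 4 did (these and Gnas), with none lower. Of all genes 4.19% rose in t2i and 7.94% in a2i, and 3.89% and 5.85% fell. Between the sexes 4 of the 13 network genes were higher in XX lines and 5 lower, at a median of -0.17. Of all genes 21.4% were higher and 20.0% lower in XX lines.

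**Figure D5:**
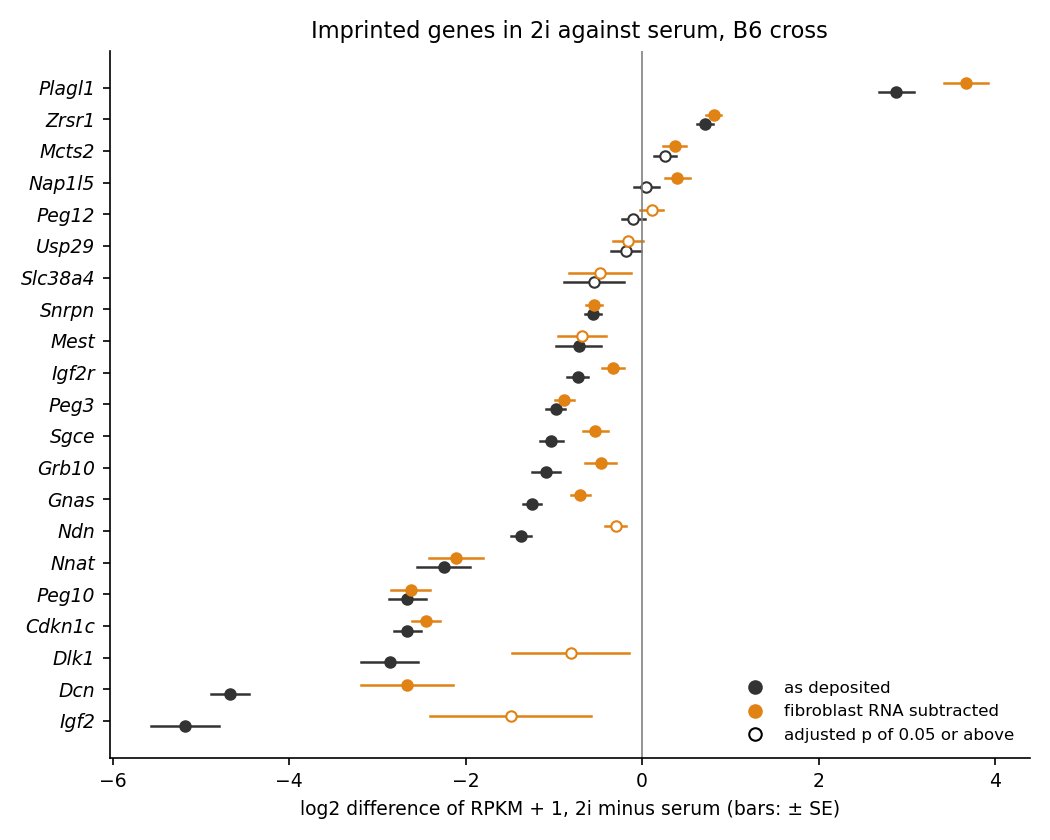
Log2 difference of RPKM + 1, 2i minus serum in the B6 cross (x axis), with SE bars, for the tested genes of the imprinted network and of the paternally expressed list (y axis), as deposited and with fibroblast RNA subtracted; open points have an adjusted p of 0.05 or above. Plagl1 lies at the top at 2.88 as deposited and 3.67 after subtraction, Peg3 at -0.98 and -0.88, and Igf2 and Dlk1 move most under subtraction.

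Plagl1 and Peg3 also belong to a list of 16 paternally expressed genes whose control regions are methylated on the maternal copy, of which 13 were tested. In 2i against serum 2 were higher (Plagl1 and Zrsr1, a splicing factor gene) and 7 lower, Peg3 among them. Of all genes 16.8% were higher and 30.7% lower. The median of the 13 was -0.56, against -0.09 for all genes. With fibroblast RNA subtracted 4 were higher and 5 lower, at a median of -0.30 against 0.06 for all genes. The shares of all genes above are as deposited, and none is given after subtraction. Zrsr1 also fell with Plagl1 in t2i (-0.56, SE 0.09, adjusted p = 0.0039) and a2i (-0.85, SE 0.09, adjusted p = 1.3e-04) and was higher in XX lines (0.66, SE 0.07, adjusted p = 6.7e-06). Between the sexes 7 of the 13 were higher in XX lines (6 without the serum libraries), Plagl1 and Peg12 (2.22, SE 0.09, adjusted p = 5.0e-09) among them, and 4 were higher in XY lines, beside 21.4% of all genes higher and 20.0% lower in XX.

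Of 6 genes reported as targets or partners of PLAGL1, 5 were tested in the B6 cross, and in 2i against serum 1 rose and 2 fell, beside 16.8% of all genes higher and 30.7% lower. Adcyap1r1, the gene for a receptor of the neuropeptide PACAP, stood at -0.50 (SE 0.14, adjusted p = 0.0094) as deposited but at 0.41 (SE 0.13, adjusted p = 0.021) with fibroblast RNA subtracted, which turns its direction and makes the count 2 higher and 1 lower. The shares of all genes beside that count are as deposited. Cdkn1a, a cell cycle inhibitor gene, rose in 2i over serum (0.40, SE 0.11, adjusted p = 0.0085) and fell in t2i (-0.49, SE 0.11, adjusted p = 0.016) and a2i (-0.65, SE 0.11, adjusted p = 0.0018), but was lower in XX lines (-0.33, SE 0.08, adjusted p = 0.0036). Socs3, an inhibitor of cytokine signalling, moved the other way in the media, at -1.05, 0.94 and 1.28 (SE 0.18 each). Of 3 genes for reported partners of PEG3, Traf2 was lower in 2i than in serum (-0.32, SE 0.10, adjusted p = 0.016) and the other two, Siah1a and Bax, were not called. With fibroblast RNA subtracted Traf2 was not called (-0.24, SE 0.10, adjusted p = 0.058) and Bax, a cell death gene, was higher in 2i (0.32, SE 0.06, adjusted p = 0.0016). Among 10 genes that keep or set methylation imprints, 2 were higher in 2i than in serum and 4 lower, beside the same 16.8% and 30.7% of all genes. Zfp57 was higher in 2i (0.40, SE 0.09, adjusted p = 0.0034) and Dnmt3l, the cofactor that enables imprints to be set in the egg, lower (-1.56, SE 0.14, adjusted p = 1.2e-06).

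In the 2i MEF library 1 network gene was higher than in MEFs and 3 lower of 13 tested, beside 0.126% of all genes higher and 0.327% lower. This arm is 1 library, assumed to vary like the other groups, with no spread of its own. Mest stood at 3.08 (SE 0.34, limma adjusted p = 0.021), and Grb10, Igf2r and Igf2 stood at -5.20 (SE 0.22, adjusted p = 1.1e-04), -4.48 (SE 0.29, adjusted p = 0.0016) and -5.01 (SE 0.51, adjusted p = 0.019).

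Over the 16 B6 libraries, which share their grouping by medium and sex, the gene whose log2 values were most like those of Plagl1 among 13130 compared was Tcte2 (Pearson r = 0.968), followed by Klhdc7a (0.950), Cmtm7 (0.949), Rcn1 and Zfp446. Over the 10 MSM libraries r with Plagl1 was 0.880 for Cmtm7 and 0.806 for Rcn1 but 0.0639 for Tcte2. Most like Peg3 were Tmem154 (0.953), Notch3, Wdr48, Camk2g and Hmgcs1 (0.944), and over the MSM libraries r with Peg3 was 0.618 for Tmem154, 0.611 for Wdr48, 0.444 for Camk2g, 0.188 for Hmgcs1 and 0.0841 for Notch3. Most like Zim1 were Ifit1 (0.937), Pamr1, Usp18, Aqp1 and Irf7, of which Ifit1, Usp18 and Irf7 are interferon-induced genes. These are descriptions across libraries with no test.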

How the data were processed

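Gene-level RPKM values for 26 libraries were deposited by the authors in 1 table, from stranded mRNA libraries per the labels' protocols. The tools named in the submitters' processing notes are Cufflinks 2.2.1, TopHat2 2.1.0, Bowtie2 2.2.5 and cutadapt 1.9.1, and the build is mm10. Which of them made the RPKM values, the annotation and the strand setting are not given in the sources used here. Read counts were not used here, so depth is unknown and no counting interval is given. RPKM summed to 624274 to 934309 per library, and 11234 to 12558 loci reached 1 RPKM.

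From the deposited RPKM, log2(RPKM + 1) was fitted with limma 3.58.1 in R 4.3.3 (trend), keeping loci at 1 RPKM or more in at least 2 libraries of a fit, with Benjamini-Hochberg adjustment over all of them and calls under 0.05. This scale understates changes of low genes. The B6 fit held a mean for each of 8 combinations of medium and sex, leaving 8 residual degrees of freedom. A medium difference there averages the XX difference and the XY difference. The MSM fit held 1 mean per culture and a term for XX among ESCs, leaving 4. Its single libraries, 2i-S and 2i MEF, were taken to vary as the other groups do. The crosses were compared in fits of 8 (2i only) and 14 libraries with sex terms. The fits were tested on simulated data.

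Fibroblast RNA was estimated per library as the median, over 16 markers, of RPKM over the mean of the MEFs. That share of the mean MEF RPKM was subtracted as an alternative, not less than 0. It left 8 of the 16 markers called lower and 2 called higher in 2i than in serum in the B6 cross. The sources do not say whether feeder cells were used, and the MEFs come from the MSM cross. Other alternatives changed the pseudocount, filter or scaling, limited a fit to 2 media, or left out each library. Subtraction in XX against XY and in the lists, and leaving out the serum libraries, were added after the data were seen.

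The members and all gene lists were chosen with earlier results of these data known. Named genes are the 3 members, some genes of each list, and the 5 genes most alike to each member. The plan was to name at most 6 genes of a list, which was exceeded for the imprinted network. Listed genes without a row of their own (H19, Meg3, Kcnq1ot1, Airn, Hymai, Peg3os, Zim2, Zim3 and Zfp264) carry no value. Sequences are from RefSeq (GRCm38.p6), where all 3 members matched by symbol. Python 3.11.15, with pandas 2.3.3 and matplotlib 3.10.9, made the tables and plots.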

Additional observations from a re-analysis of the deposited data

How the results depend on the processing

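Of 12 differences of Plagl1 and Peg3 that were called, 10 kept their direction and call under every alternative run, among them all those of the B6 cross. For Plagl1 against B6 serum the fibroblast subtraction could only widen the difference, so that alternative does not test its direction. The exceptions were Plagl1 in 2i against S and Peg3 in MEFs against 2i. Leaving out single libraries gave 2.96 to 3.39 for the former (not called without S XX 8 or S XY 12). For the latter it gave 0.30 to 0.83, not called without MEF 2 or 2i lines 2, 20 or 23, nor without a low-value filter (0.56, adjusted p = 0.05). Peg3 in 2i against S passed after quantile normalization (-0.70, adjusted p = 0.048). Plagl1 in MEFs against 2i ranged from -2.05 to -0.14 over left-out libraries.

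Differences that were not called changed sign in places. Plagl1's sex difference in 2i against serum was -0.06 with a pseudocount of 0.1 RPKM, -0.80 after fibroblast subtraction and -0.21 to 0.59 over left-out libraries. Its sex difference in t2i against 2i was 0.05 and 0.02 with pseudocounts of 0.1 and 0.5 RPKM and -0.18 to 0.14 over left-out libraries. Its difference between crosses was 0.43 after subtraction. Left-out libraries gave -0.30 to 0.03 for Plagl1 in a2i against t2i, -0.44 to 0.11 for Plagl1 in MSM against B6, -0.14 to 0.04 for Peg3 in a2i against 2i and -0.29 to 0.01 for its sex difference in t2i against 2i. Peg3 in MSM against B6 was 0.01 on the TPM scale. The causes were not tested.

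Counts of called genes moved more. With only 2 media in the fit, a2i against t2i called 23 genes and the sex difference in a2i against 2i 230. On the TPM scale the sex difference in t2i against 2i called 99 and 2i-S against 2i 109. In 2i MEF against MEF 17, 24 and 113 genes were called with pseudocounts of 0.1 and 0.5 RPKM and without a filter. After subtraction the difference between crosses called 859. Over left-out libraries the counts were 569 to 904 (t2i against 2i), 17 to 196 (a2i against t2i), 582 to 925, 46 to 123 and 161 to 497 (sex differences in 2i against serum, t2i and a2i against 2i), 662 to 2257 (2i against S), 0 to 106 (2i-S against 2i, where limma without 2i line 2 called 0 but had 2228 genes at an unadjusted p under 0.05), 7 to 109 (2i MEF against MEF), 1114 to 2570 (MSM against B6) and 699 to 1759 (difference between crosses).

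No paired analysis was possible because the groups compared hold different lines, and the one shared line, MSM line 15, links single libraries of 2i, 2i-S and 2i MEF. Groups of 1 or 2 lines, an unknown depth and a fibroblast reference of 2 MEF libraries that differ in Plagl1 (33.4 and 8.18 RPKM) limit these values, and subtraction moved the median of all genes in 2i against serum from -0.09 to 0.06.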
